A study of Homo sapiens with 6 samples.

Results

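Interferon-stimulated genes and the proteins that control them were followed in the established human line KYSE150, derived from an esophageal squamous cell carcinoma (ESCC), with and without a hairpin against the long non-coding RNA AC007128.1. The 49 genes were taken by symbol from a written list that holds 1 interferon ligand, the receptor chains, transcription factors, sensors of foreign RNA and antiviral effectors, and all 49 were found among the 67140 gene identifiers of the deposited table. Poly-A RNA sequencing was performed on 3 samples carrying a control hairpin (shCtrl) and 3 carrying the hairpin against AC007128.1 (shAC007128.1), and every sample is the same cell line grown in serum-supplemented medium with no added interferon mentioned. The study made stable lines by lentiviral transduction and puromycin selection, and shAC007128.1 is 1 hairpin, so effects of that sequence and of the loss of its target cannot be told apart. The labels do not say that the 3 samples of a group came from separate cultures, so the p-values measure only the spread between these samples, which may be technical.

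Type I interferons are secreted proteins that bind the receptor chains IFNAR1 and IFNAR2, whose attached kinases JAK1 and TYK2 then phosphorylate STAT proteins. STAT2 joins IRF9 in a complex that binds the interferon-stimulated response element (ISRE) in the promoters of the target genes. Those targets include proteins that detect, cut, edit or trap viral RNA, a ubiquitin-like modifier (ISG15) with its ligases, and membrane proteins that block virus entry. Many epithelial and carcinoma cells keep a low level of these transcripts without any infection.

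Total counts per sample ran from 55764405 to 78610457, and 3 counts, taken as the smallest detectable amount, equalled 0.0373 to 0.0546 CPM, the counts scaled to library size. Low counts in shCtrl replicate 1 peaked at 4, 8 and 12, so the true limit may be higher. All CPM values below also use TMM factors of 0.967 to 1.04 and are given in the order of replicates 1, 2 and 3. The targeted AC007128.1 had 69, 33 and 53 counts in shCtrl and 18, 37 and 15 counts in shAC007128.1. Its groups overlapped and its log2 fold change of -0.77 (SE 0.507) missed the threshold (edgeR adjusted p = 0.271), and the value ran from -1.29 without shAC007128.1 replicate 2 to -0.51 without shCtrl replicate 1. Of AC007128.1's exonic bases 42.2% are shared with other annotated genes, among them ICA1-AS1 and ICA1. By qPCR, the study reported lower AC007128.1 in cells carrying its hairpin. The treatment text of the labels names the AC007128.1 hairpin for every sample, while titles and descriptions separate the groups. Summed CPM of 8 epithelial markers was 2167 to 2193 in shCtrl and 3154 to 3684 in shAC007128.1. They include the general epithelial genes CDH1 and EPCAM. The squamous genes KRT5 (560 to 1224 CPM) and TP63 (96.0 to 182 CPM) were present in all 6 samples, and TP63 had no call. Leukocyte markers, a possible source of interferon-stimulated transcripts, summed to 62.7 to 72.0 CPM in shCtrl and 15.3 to 24.3 CPM in shAC007128.1. Nearly all of that was CD68, of whose exonic bases 85.6% are shared with other annotated genes. Without CD68 the other 8 leukocyte markers summed to 3.98 to 4.77 and 0.818 to 1.84 CPM, CLEC4C and LILRA4 were at 0 in every sample, and the pan-leukocyte gene PTPRC had 0 to 9 counts. ITGAX made up most of that remaining sum in shCtrl (3.24 to 3.91 CPM) and stood at 0.213 to 0.619 CPM in shAC007128.1. Markers of fibroblasts and endothelium summed to 16.2 to 18.5 and 17.3 to 21.0 CPM.

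The ISRE is a short element, and short windows around it are shown because the same letters stand in front of members that fell and members that rose. The core GAAANNGAAA was searched on both strands of RefSeq promoter windows of GRCh38.p14, which reach from 250 bases before to 50 bases after a transcription start. Of the 40 members with a window, 25 (62.5%) held the core, compared with 1195 of 27305 genes (4.38%) with such windows. The letters TTCNNNGAA of the gamma-activated site, the element that STAT dimers bind, were in 12 of the 40 (30%) and in 9.38% of all genes. The 2 searches can overlap by a few bases, as at IFI27 and BST2. Each 30-base stretch below is written 5′ to 3′ on the strand that carries the core, which is in capitals.
RSAD2 (chr2:6877622-6877651, minus strand): ttccacatgtGAAACTGAAAgttgaaacag
HERC5 (chr4:88457035-88457064, minus strand): agctccagtgGAAAACGAAAcataatgttt
IFITM1 (chr11:314024-314053, plus strand): acacttctgaGAAACTGAAAcgacagggga
IFIT3 (chr10:89332468-89332497, minus strand): aaggggaaagGAAAGTGAAActgatggaac
ISG15 (chr1:1013380-1013409, plus strand): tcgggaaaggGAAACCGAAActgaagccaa
SAMD9 (chr7:93118096-93118125, minus strand): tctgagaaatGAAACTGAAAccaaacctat
PARP9 and DTX3L (chr3:122564322-122564351, plus strand): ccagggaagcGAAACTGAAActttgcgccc
OAS3 (chr12:112938452-112938481, plus strand): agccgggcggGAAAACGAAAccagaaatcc
EIF2AK2 (chr2:37156967-37156996, minus strand): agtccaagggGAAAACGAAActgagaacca
IFIT1 (chr10:89392510-89392539, minus strand): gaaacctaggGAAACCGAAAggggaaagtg
The first 5 belong to genes whose counts fell in shAC007128.1, the next 4 to genes whose counts rose, and the last to a gene with no call. The core GAAACTGAAA was read at RSAD2 and IFITM1, which fell, and at SAMD9, PARP9 and DTX3L, which rose. Among members with a window, the core was present in 10 of 13 that fell, 6 of 12 that rose and 8 of 11 with no call. Only a spacer of 2 bases was searched, so runs with a shorter spacer were not counted. Such runs stand in the windows of OAS1, which fell, and of RIGI, IFI35 and SP110, which rose. A match is a run of letters in this window and no measurement of binding.

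Of the 49 members, 44 passed the filter on low counts and entered the quasi-likelihood test of edgeR, with p-values adjusted by Benjamini-Hochberg over all 19254 genes tested. At an adjusted p of at most 0.05, 13 members rose in shAC007128.1 and 17 fell, while 14 had no call. Over all genes tested 21% rose and 19.8% fell, so the share of members that rose (29.5%) and that fell (38.6%) stood above a background in which 40.8% of all genes were called, a difference that was not tested. The members were chosen with earlier results of these data known, so the shares in this paragraph only describe the list. At a change of at least 2-fold, 4 members rose and 11 fell (9.09% and 25%), beside 5.57% and 10.1% of all genes (15.7% in either direction). The 2 groups of samples did not overlap for 36 of the 44 members (81.8%) and for 55.2% of all genes. The median log2 fold change was -0.34 over the members tested and -0.02 over all genes. Among the 17 that fell were 4 members (IFITM1, HERC5, BST2 and SAMD9L) that passed the filter through the shCtrl samples alone and so had to differ. Over the 36 members that passed in all 6 samples, 13 rose and 12 fell, with a median of -0.12 beside 0.03 for the 15797 genes of that kind, of which 24.9% rose and 20.7% fell. At 2-fold 4 of the 36 rose and 6 fell, beside 6.16% and 8.88% of those genes, and 29 of the 36 (80.6%) did not overlap between the groups, beside 58.6%. In bulk RNA, fewer cells that express a gene and less RNA per cell cannot be told apart.

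**Figure D1:**
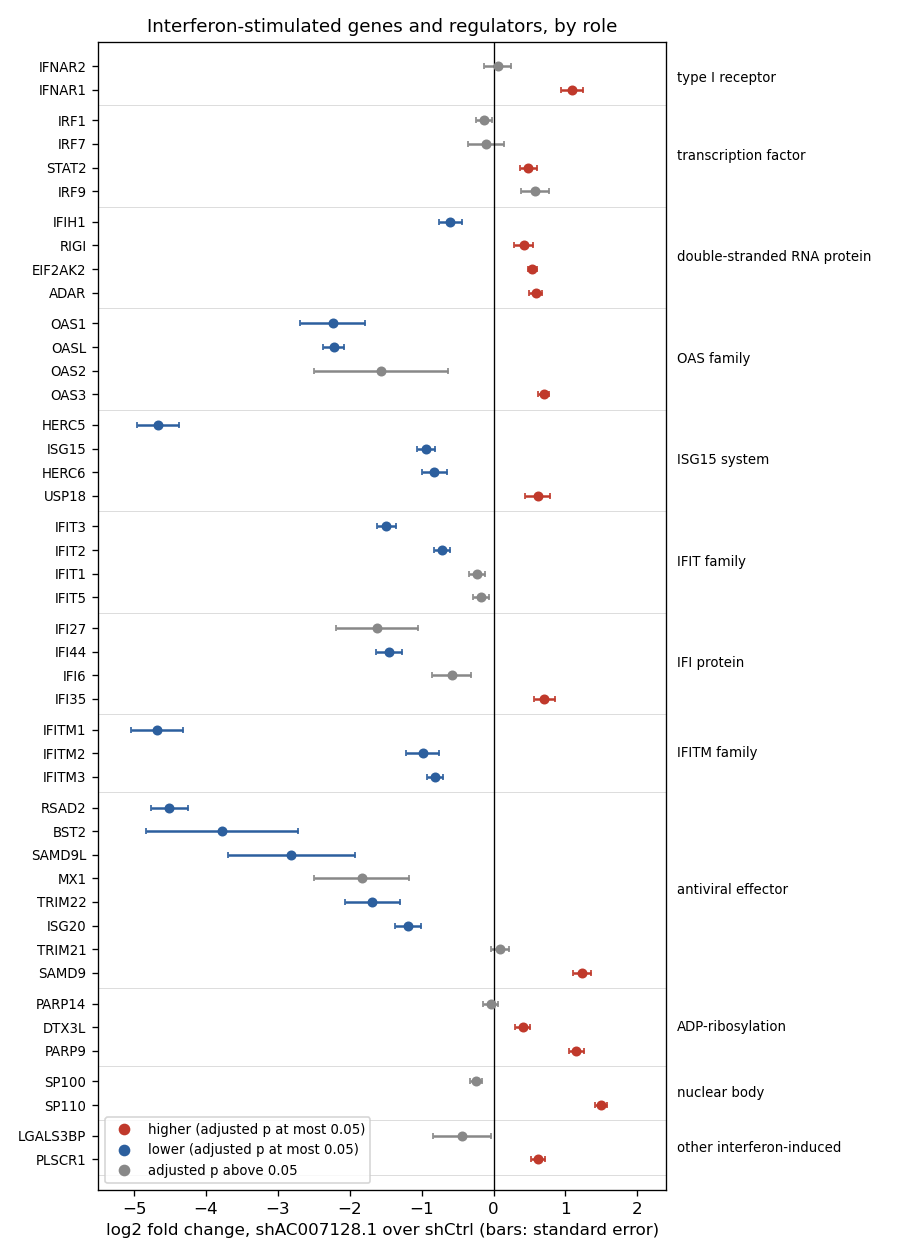
Log2 fold change (shAC007128.1 minus shCtrl) of the 44 tested members, grouped by role, with bars for the standard error and colour for the call at an adjusted p of at most 0.05. The points run from -4.68 for IFITM1 to 1.5 for SP110, and the roles hold members on both sides of 0 except the IFIT and IFITM families, which lie below it, and the receptor chains, which lie above it.

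Interferon transcripts themselves were barely detected. IFNB1, the gene of interferon beta, had 0, 0 and 5 counts in shCtrl and 0 in each shAC007128.1 sample, and was not tested. Of 20 other interferon genes, from interferons alpha to lambda, 19 were too low to test. The exception, IFNE, an epithelial interferon, had no call (log2 fold change 0.76, SE 0.73, edgeR adjusted p = 0.451).

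The receptor chain IFNAR1, which starts the signal together with IFNAR2, rose 2.14-fold. It stood at 32.4, 31.4 and 25.6 CPM in shCtrl and at 51.2, 67.1 and 72.7 CPM in shAC007128.1, with no overlap (log2 fold change 1.10, SE 0.156, edgeR adjusted p = 0.00139). The partner chain IFNAR2, a neighbour on chromosome 21, was measured at 19.7, 14.7 and 18.6 CPM and at 22.7, 17.6 and 14.8 CPM. Its groups overlapped and it had no call (0.06, SE 0.188, edgeR adjusted p = 0.837), and its sign depended on the scaling and on single samples. Of its exonic bases 27.7% are shared with IFNAR2-IL10RB and IL10RB-DT.

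Among the transcription factors, STAT2 rose and the 3 IRF genes had no call. STAT2 had 81.9, 67.5 and 74.0 CPM in shCtrl and 106, 118 and 89.3 CPM in shAC007128.1 (0.49, SE 0.123, edgeR adjusted p = 0.0169). All 3 shAC007128.1 values lay above all 3 shCtrl values, but the adjusted p was 0.0703 without shCtrl replicate 2, 0.0591 without shCtrl replicate 3 and 0.0502 without shAC007128.1 replicate 2. IRF9, the DNA-binding partner of STAT2, was at 5.11, 8.0 and 7.76 CPM and at 11.2, 10.1 and 9.82 CPM, again without overlap, and just missed the threshold (0.57, SE 0.195, edgeR adjusted p = 0.0504). It passed with DESeq2 (adjusted p = 0.0205) and limma-voom (adjusted p = 0.038). IRF1, an early activator of interferon targets, had 33.0, 36.7 and 32.2 CPM against 32.1, 33.3 and 27.3 CPM (-0.14, SE 0.11, edgeR adjusted p = 0.362). IRF7, which drives interferon alpha genes, had 3.31, 2.72 and 2.48 CPM against 2.12, 3.53 and 2.29 CPM (-0.10, SE 0.253, edgeR adjusted p = 0.782). Both overlapped between the groups. IRF1 shares 22.9% of its exonic bases with other annotated genes, mainly IRF1-AS1 on the other strand, and IRF9 shares 27.2%, and the use of strand in counting is not given in the sources used here.

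The proteins that bind double-stranded RNA moved in both directions. ADAR, which edits adenosine to inosine in such RNA, was at 208, 212 and 201 CPM in shCtrl and at 345, 277 and 313 CPM in shAC007128.1 (0.59, SE 0.0889, edgeR adjusted p = 0.00182). EIF2AK2, the kinase PKR that stops translation, rose from 127, 131 and 129 CPM to 184, 195 and 184 CPM (0.54, SE 0.063, edgeR adjusted p = 0.000592). Both were higher in every shAC007128.1 sample, and the change of EIF2AK2 was many times the spread within either group. The sensor IFIH1 (MDA5), which detects long RNA duplexes, fell from 28.3 ± 2.67 to 18.7 ± 3.77 CPM (SD, n = 3), a log2 change of -0.60 (SE 0.159, edgeR adjusted p = 0.0207). Its adjusted p was 0.0635 to 0.0753 when shCtrl replicate 1, shCtrl replicate 3, shAC007128.1 replicate 1 or shAC007128.1 replicate 2 was left out. RIGI, the sensor of short RNA with a triphosphate end, had 9.34, 9.65 and 9.49 CPM in shCtrl and 11.5, 12.1 and 14.6 CPM in shAC007128.1 (0.42, SE 0.132, edgeR adjusted p = 0.0384). That call was lost with library sizes alone (adjusted p = 0.0718), with no filter (0.104) and without any single sample except shAC007128.1 replicate 1 (0.0619 to 0.116), and 43.2% of RIGI's exonic bases are shared with an overlapping gene on the same strand.

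The 4 OAS genes encode 1 family, in which OAS1, OAS2 and OAS3 are enzymes that RNA duplexes switch on. Its called genes split in direction. OASL, a catalytically inactive member, fell 4.67-fold, from 17.8, 20.6 and 16.6 CPM to 4.20, 3.57 and 4.02 CPM (-2.22, SE 0.144, edgeR adjusted p = 5.74e-05). OAS1 had 2.79, 2.29 and 1.72 CPM in shCtrl and 0.836, 0.273 and 0.327 CPM in shAC007128.1 (-2.24, SE 0.457, edgeR adjusted p = 0.00699). Replicate 1 of shAC007128.1 stood above the other two for OAS1, and without it the log2 fold change was -2.91. OAS3, by contrast, rose from 99.2, 104 and 102 CPM to 174, 168 and 154 CPM (0.70, SE 0.0739, edgeR adjusted p = 0.000396). OAS2 was low, with 34, 73 and 53 counts in shCtrl and 0, 21 and 20 counts in shAC007128.1, and had no call although its groups did not overlap (-1.56, SE 0.933, edgeR adjusted p = 0.225). In CPM per kilobase of the canonical transcript, OAS3 (15.4 in shCtrl) was the most abundant of the 4, ahead of OASL (5.61), OAS1 (1.39) and OAS2 (0.155), and in shAC007128.1 the values were 25.0, 1.20, 0.293 and 0.0524.

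The ISG15 system attaches the small protein ISG15 to other proteins. The modifier and its attaching enzymes fell, while the enzyme that removes it rose with an unstable call. ISG15 went from 57.6, 58.0 and 56.2 CPM to 34.7, 29.3 and 25.5 CPM (-0.94, SE 0.121, edgeR adjusted p = 0.000898). HERC5, the main human ISG15 ligase, had 214, 230 and 166 counts in shCtrl and 5, 5 and 8 counts in shAC007128.1. The HERC5 groups stood 25.4-fold apart (-4.67, SE 0.29, edgeR adjusted p = 5e-05), and its shAC007128.1 values, 0.0889, 0.0910 and 0.138 CPM, are close to the limit set by 3 counts. HERC5 passed the filter through shCtrl alone and so had to be lower. Its neighbour and relative HERC6 had 10.9, 9.91 and 9.28 CPM against 4.61, 5.68 and 6.71 CPM (-0.82, SE 0.174, edgeR adjusted p = 0.00814). UBA7, the enzyme that activates ISG15, fell from 1.73 ± 0.188 to 0.262 ± 0.155 CPM (SD, n = 3; -2.72, SE 0.425, edgeR adjusted p = 0.00214), and the carrier enzyme UBE2L6 from 67.4 ± 1.97 to 38.2 ± 2.0 CPM (-0.82, SE 0.0793, edgeR adjusted p = 0.000274). UBA7 and UBE2L6 come from a list of pathway genes outside the 49, and UBA7 passed the filter in only part of the samples. USP18, which takes ISG15 off proteins and also damps IFNAR2 signalling, rose from 9.94, 9.13 and 10.9 CPM to 18.1, 16.0 and 11.9 CPM (0.62, SE 0.176, edgeR adjusted p = 0.0274). Its groups did not overlap, but shAC007128.1 replicate 3 was close to the shCtrl samples. The call for USP18 was lost with no filter (adjusted p = 0.0554) and on leaving out any 1 sample (0.0538 to 0.0947) other than that replicate.

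**Figure D2:**
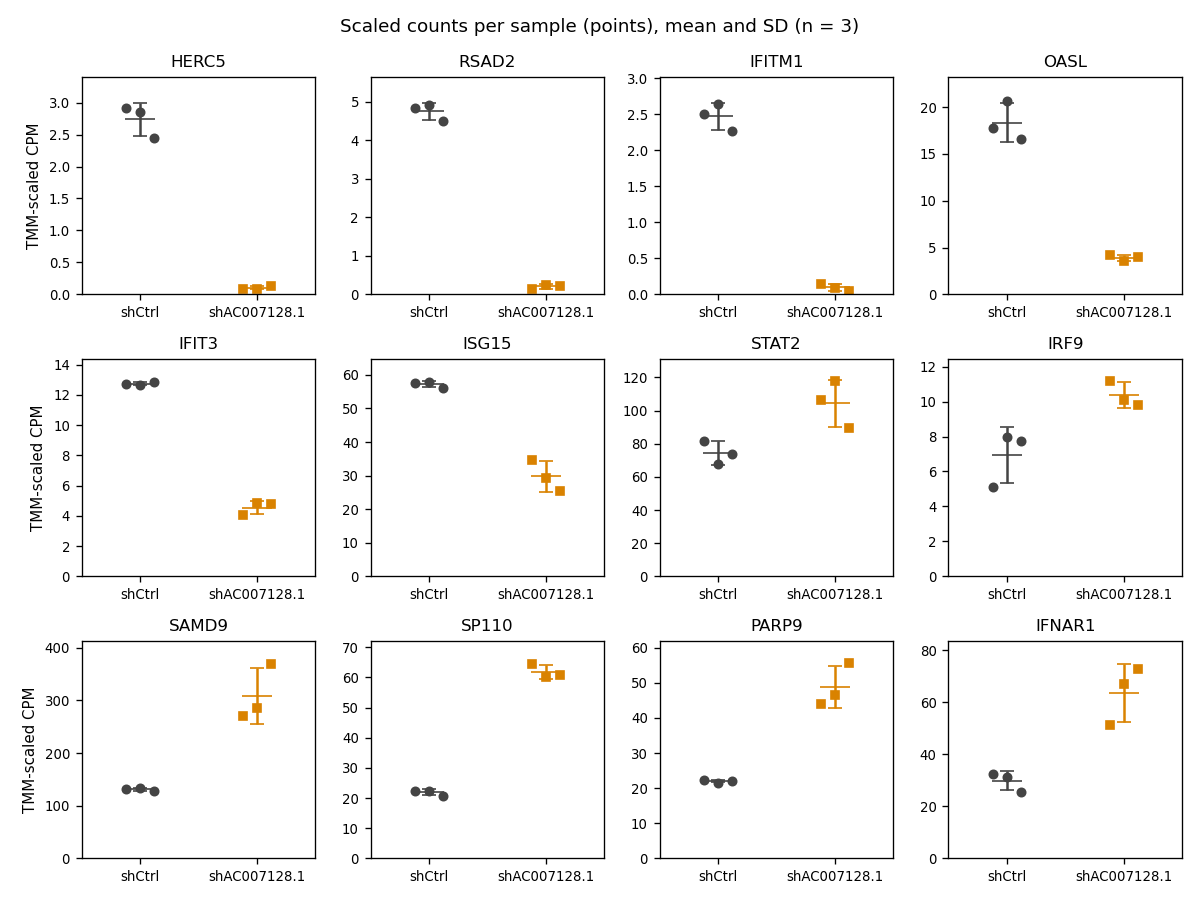
TMM-scaled CPM (linear axis from 0) of single members in each of the 3 shCtrl and 3 shAC007128.1 samples, 1 panel per gene, with a line for the group mean and bars for the SD. HERC5, RSAD2 and IFITM1 lie near 0 in every shAC007128.1 sample, while SAMD9, SP110 and PARP9 lie above every shCtrl sample.

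The IFIT genes, neighbours on chromosome 10 whose proteins bind viral RNA ends or related targets, lay below 0 but only 2 of 4 fell. IFIT3 went from 12.7, 12.7 and 12.9 CPM to 4.04, 4.82 and 4.76 CPM (-1.49, SE 0.134, edgeR adjusted p = 0.000194). IFIT2 went from 19.4, 18.6 and 20.1 CPM to 10.7, 12.7 and 11.9 CPM (-0.72, SE 0.113, edgeR adjusted p = 0.00224). Both were lower in every shAC007128.1 sample. IFIT1, which sits 65239 bases downstream of the start of IFIT3, had 16.8, 17.2 and 16.0 CPM and 13.6, 13.6 and 15.5 CPM (-0.23, SE 0.109, edgeR adjusted p = 0.135), and IFIT5 had 27.0, 26.7 and 25.4 CPM and 21.96, 21.5 and 26.7 CPM (-0.17, SE 0.113, edgeR adjusted p = 0.268). In both of these shAC007128.1 replicate 3 was the highest of its group, and without it IFIT1 passed (-0.30, adjusted p = 0.0395), as did IFIT5 (-0.29, adjusted p = 0.0256).

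Of the genes named only as interferon-induced proteins, IFI44 fell, from 4.78, 4.78 and 4.14 CPM to 1.92, 1.60 and 1.48 CPM (-1.45, SE 0.187, edgeR adjusted p = 0.000893). IFI44L, next to it on chromosome 1, had 0, 0 and 8 counts in shCtrl and 0, 3 and 5 in shAC007128.1 and was not tested. IFI35 rose from 9.44, 9.90 and 10.52 CPM to 18.5, 16.6 and 13.8 CPM (0.71, SE 0.141, edgeR adjusted p = 0.00628). Its binding partner NMI, outside the 49, also rose, from 21.5 ± 1.52 to 38.8 ± 3.42 CPM (SD, n = 3; 0.85, SE 0.106, edgeR adjusted p = 0.000781). IFI6, a mitochondrial and endoplasmic reticulum protein, had -0.58 (SE 0.272, edgeR adjusted p = 0.13) and IFI27 -1.62 (SE 0.568, edgeR adjusted p = 0.0558), with groups that did not overlap and no call. Both passed when shAC007128.1 replicate 2 was left out, IFI6 at -0.84 (adjusted p = 0.0476) and IFI27 at -2.11 (adjusted p = 0.0439). IFI27 rested on 21 to 42 counts in shCtrl and 4 to 13 in shAC007128.1, and 23.1% of IFI6's exonic bases are shared with LINC02574.

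All 3 IFITM genes, which encode membrane proteins that hinder fusion of viruses with the cell, fell. IFITM3 was the most abundant member per kilobase and went from 261, 247 and 256 CPM to 157, 156 and 120 CPM (-0.82, SE 0.11, edgeR adjusted p = 0.00107). IFITM2 went from 7.85, 6.85 and 6.60 CPM to 4.02, 4.24 and 2.51 CPM (-0.98, SE 0.227, edgeR adjusted p = 0.0116). IFITM1, which lies between the other two on chromosome 11, had 183, 213 and 154 counts in shCtrl and 8, 5 and 3 counts in shAC007128.1. That was 25.6-fold lower (-4.68, SE 0.365, edgeR adjusted p = 0.000112), a fall within the standard error of that of HERC5, and like HERC5 it passed the filter through shCtrl alone. The 3 genes are related copies, IFITM2 and IFITM3 most closely, so reads could be divided among them in the authors' counting, and 31.6% of IFITM1's and 16.3% of IFITM3's exonic bases are shared with other annotated genes.

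Of the other antiviral effectors, RSAD2 (viperin), which makes a chain-terminating nucleotide, had 4.84, 4.92 and 4.49 CPM in shCtrl and 0.142, 0.255 and 0.224 CPM in shAC007128.1. The fall was 22.8-fold (-4.51, SE 0.263, edgeR adjusted p = 4.26e-05), on 305 to 396 counts against 8 to 14. RSAD2 passed the filter in only part of the samples. CMPK2, a nucleotide kinase gene whose start lies next to that of RSAD2 and which shares 351 exonic bases with it, had 0 counts in all 6 samples. The exonuclease gene ISG20 fell from 5.55 ± 0.891 to 2.43 ± 0.0411 CPM (SD, n = 3; -1.19, SE 0.179, edgeR adjusted p = 0.00179). TRIM22, a ubiquitin ligase, had 0.888, 0.981 and 1.43 CPM and 0.338, 0.218 and 0.464 CPM (-1.68, SE 0.389, edgeR adjusted p = 0.0117), with an adjusted p of 0.0505 without shCtrl replicate 3. BST2 (tetherin), which holds budding virus on the cell surface, had 25, 29 and 24 counts in shCtrl and 0, 4 and 0 in shAC007128.1 (-3.78, SE 1.06, edgeR adjusted p = 0.0254). Every BST2 count in shAC007128.1 came from replicate 2, without which the group was at 0 and the fitted log2 fold change was -7.57 (adjusted p = 0.00857), a value that depends on the prior count. The adjusted p was 0.0597 to 0.0782 when any other single sample was left out and 0.0523 with no filter. MX1, a GTPase that traps viral nucleocapsids, varied widely within groups, with 145, 68 and 175 counts in shCtrl and 29, 7 and 50 in shAC007128.1. In CPM the MX1 groups overlapped slightly (0.845 in shCtrl replicate 2, 0.860 in shAC007128.1 replicate 3), and it had no call (-1.84, SE 0.664, edgeR adjusted p = 0.0617). MX1 passed without shCtrl replicate 2 (-2.18, adjusted p = 0.0488), without shAC007128.1 replicate 3 (-2.48, adjusted p = 0.0429) and with DESeq2 (adjusted p = 0.0147). MX2 had 13, 0 and 21 counts and 7, 0 and 0 counts and was not tested. TRIM21, an antibody receptor inside cells, had 0.09 (SE 0.122, edgeR adjusted p = 0.597).

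SAMD9 and SAMD9L, neighbours on chromosome 7 that encode related antiviral proteins, were called in opposite directions, but SAMD9L passed the filter through shCtrl alone and so had to be lower. SAMD9 rose from 131, 135 and 128 CPM to 271, 286 and 370 CPM (1.23, SE 0.121, edgeR adjusted p = 0.000284). SAMD9L had 50, 36 and 28 counts in shCtrl and 4, 8 and 0 in shAC007128.1 (-2.81, SE 0.88, edgeR adjusted p = 0.038). The rise of SAMD9 rested on 8712 to 21500 counts per sample. The SAMD9L call was lost with no filter (adjusted p = 0.0658) and when shAC007128.1 replicate 1 or any shCtrl sample was left out (0.0819 to 0.131), and without shAC007128.1 replicate 2 its log2 fold change was -3.80.

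PARP9 and DTX3L, which form a complex that joins ADP-ribosylation to ubiquitination and are read outward from 1 shared promoter region, both rose. PARP9 went from 22.2, 21.6 and 21.99 CPM to 44.1, 46.7 and 55.6 CPM (1.15, SE 0.108, edgeR adjusted p = 0.000238). DTX3L went from 43.5, 40.7 and 39.4 CPM to 49.7, 53.1 and 60.7 CPM (0.40, SE 0.1, edgeR adjusted p = 0.0157). The smaller change of DTX3L did not pass without shCtrl replicate 2 (adjusted p = 0.0635) or shCtrl replicate 3 (adjusted p = 0.0649), and the genes share 139 exonic bases on opposite strands. PARP14, 116501 bases beyond the start of DTX3L, had 45.6, 43.9 and 40.8 CPM and 38.7, 40.9 and 47.3 CPM, with overlap and no call (-0.04, SE 0.103, edgeR adjusted p = 0.795).

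SP110, a nuclear body protein, had the steepest rise among the members. It went from 22.5, 22.4 and 20.8 CPM to 64.5, 60.2 and 60.9 CPM, a 2.83-fold change (1.5, SE 0.0828, edgeR adjusted p = 3.61e-05), and 19.4% of its exonic bases are shared with other annotated genes. Its relative SP100, a main component of those bodies, had 81.1, 80.8 and 78.5 CPM and 65.4, 63.2 and 74.5 CPM and no call (-0.24, SE 0.0868, edgeR adjusted p = 0.0586). All 3 shAC007128.1 values of SP100 lay below shCtrl, and without shAC007128.1 replicate 3 it passed (-0.33, adjusted p = 0.00451). PML, which organises those bodies, is outside the 49 and rose from 62.8 ± 0.984 to 109 ± 11.6 CPM (SD, n = 3; 0.80, SE 0.0939, edgeR adjusted p = 0.000612).

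PLSCR1, a phospholipid scramblase induced by interferon, rose from 40.7, 39.4 and 37.6 CPM to 54.6, 58.7 and 67.0 CPM (0.62, SE 0.099, edgeR adjusted p = 0.00246). LGALS3BP, a secreted glycoprotein, had 317, 298 and 308 CPM in shCtrl and 301, 292 and 88.6 CPM in shAC007128.1, where replicate 3 stood far below all other samples. It had no call (-0.44, SE 0.4, edgeR adjusted p = 0.424), and without that sample its log2 fold change was -0.06. XAF1, a pro-apoptotic gene, had 4 counts in shCtrl replicate 2 and 0 in the other samples.

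**Figure D3:**
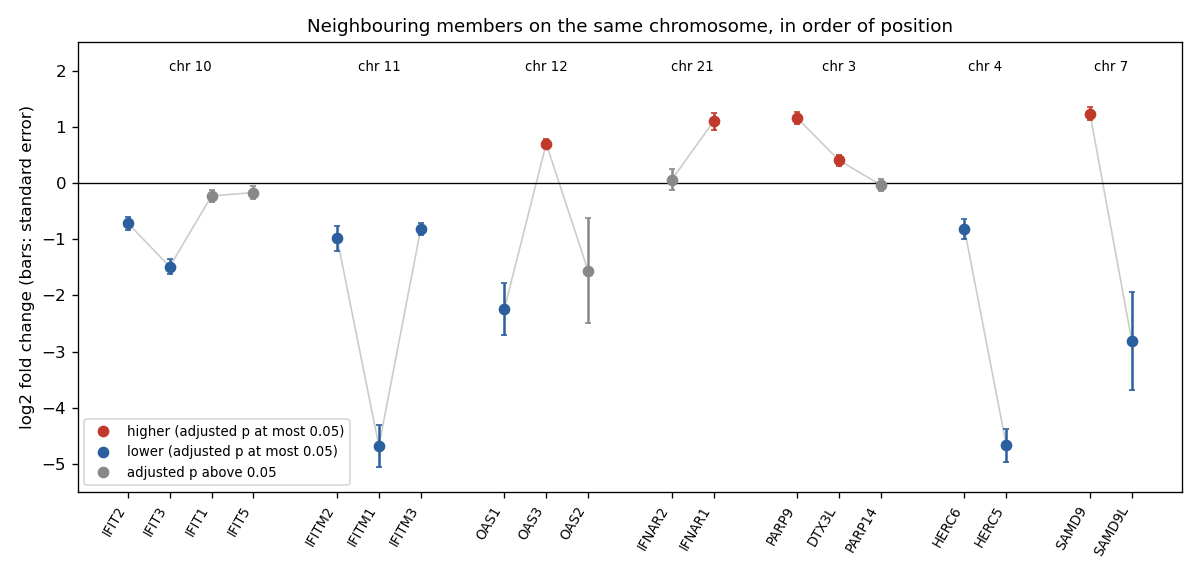
Log2 fold change (shAC007128.1 minus shCtrl) of tested members that start within 200 kb of another tested member, 1 block per neighbourhood in order of position, with bars for the standard error and colour for the call. OAS3 (0.70) lies between OAS1 (-2.24) and OAS2 (-1.56), which was low and had no call. SAMD9 (1.23) lies beside SAMD9L (-2.81), which passed the filter through shCtrl alone.

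Members that sit side by side in the genome were compared because interferon-stimulated genes often lie in tandem families. Positions are those of GENCODE v44 on GRCh38. On chromosome 7, SAMD9 (chr7:93099513-93118023, minus strand) and SAMD9L (chr7:93130056-93148385, minus strand) start 30543 bases apart, and SAMD9 rose while the fall of SAMD9L rested on the low counts and the unstable call given above. On chromosome 12, OAS1 (chr12:112905856-112933219, plus strand) fell and OAS3 (chr12:112938051-112976460, plus strand) rose, while OAS2 (chr12:112978395-113011723, plus strand) had no call. On chromosome 4, HERC6 (chr4:88378739-88443097, plus strand) and HERC5 (chr4:88457119-88506163, plus strand) both fell, by very different amounts. The same held on chromosome 11 for IFITM2 (chr11:303655-309397, plus strand), IFITM1 (chr11:310041-315272, plus strand) and IFITM3 (chr11:319676-329475, minus strand).

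The level of a member in shCtrl was set beside its change. In CPM per kilobase, the members with the highest levels were IFITM3 (417), LGALS3BP (140), ISG15 (89.9) and ADAR (31.3). The 13 members that rose had 2.05 to 31.3 CPM per kilobase with a median of 8.42, the 17 that fell had 0.0719 to 417 with a median of 3.51, and the 14 with no call had 0.155 to 140 with a median of 4.34. Over the 36 members that passed the filter in all 6 samples, the medians were 8.42 for the 13 that rose, 5.47 for the 12 that fell and 4.96 for the 11 with no call. Across the 44 members Spearman's rho between the mean log2 level per kilobase over the 6 samples and the log2 fold change was 0.715, and across 19156 genes it was 0.225. A gene of low level that passed the filter through shCtrl alone had to fall, and without the members that did not pass in all 6 samples rho was 0.515 over 36 members, beside 0.158 over 15729 such genes. The points share the same 6 libraries, the level includes the samples that the change is made from, and genes are not independent replicates, so these values are descriptions.

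**Figure D4:**
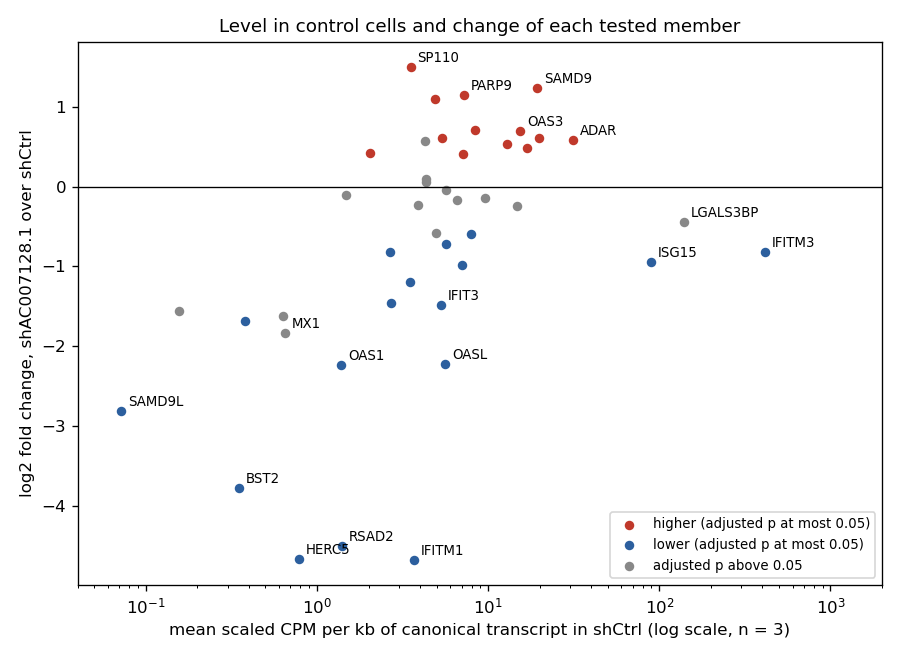
Level in shCtrl (CPM per kilobase of canonical transcript, log axis) against the log2 fold change (shAC007128.1 minus shCtrl) of the 44 tested members, coloured by call. Members that rose lie between 2.05 and 31.3 CPM per kilobase, and the steepest falls, HERC5, RSAD2 and IFITM1, lie between 0.781 and 3.70. HERC5 and IFITM1 passed the filter through shCtrl alone and RSAD2 in only part of the samples.

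A second list held 92 other genes of the pathway, of which 65 were tested. Of these 18 rose (27.7%) and 21 fell (32.3%), beside 21% and 19.8% of all genes, and the median log2 fold change was -0.14. At 2-fold 6 rose (9.23%) and 12 fell (18.5%), beside 5.57% and 10.1% of all genes. The groups did not overlap for 72.3% of them, beside 55.2%. In this list 0 genes passed the filter through shCtrl alone and 7 passed in only part of the samples. The difference from all genes was not tested. Among receptors and kinases, JAK2 (0.70, SE 0.132, edgeR adjusted p = 0.00506) and TYK2 (0.28, SE 0.0805, edgeR adjusted p = 0.0295) rose and the other 4 tested genes had no call. TYK2 lost its call with library sizes alone, with no filter and without any sample other than shAC007128.1 replicate 3, with adjusted p-values of 0.0687 to 0.125. Among the sensing adaptors, CGAS, the sensor of cytosolic DNA, rose from 43.4 ± 0.406 to 72.3 ± 5.67 CPM (SD, n = 3; 0.74, SE 0.0853, edgeR adjusted p = 0.000574), and its adaptor STING1 rose from 5.87 ± 0.621 to 9.26 ± 0.906 CPM (0.66, SE 0.152, edgeR adjusted p = 0.0117). Of the 12 sensing adaptors and kinases tested, 2 rose (16.7%) and 4 fell (33.3%), beside 21% and 19.8% of all genes. The other 6 had no call, genes of RNA sensing among them. TRIM25, a ligase that assists RIG-I, fell from 225 ± 6.66 to 140 ± 3.94 CPM (-0.68, SE 0.0634, edgeR adjusted p = 0.000233). TICAM1, the adaptor of TLR3, fell from 61.4 ± 3.43 to 38.8 ± 6.62 CPM (-0.66, SE 0.135, edgeR adjusted p = 0.00696). TRAF3 also fell (-1.14, SE 0.341, edgeR adjusted p = 0.0324), but shCtrl replicate 3 stood apart in it. Without that sample its change was -0.63 (adjusted p = 0.039), and without shAC007128.1 replicate 1, 2 or 3 the adjusted p was 0.0987, 0.0557 or 0.0902.

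Among feedback inhibitors and IRF partners, SOCS3, which blocks JAK kinases, rose from 25.7 ± 3.50 to 68.8 ± 14.8 CPM (SD, n = 3; 1.42, SE 0.181, edgeR adjusted p = 0.000873). PIAS1, an inhibitor of STAT binding to DNA, rose by 0.71 (SE 0.173, edgeR adjusted p = 0.0145), with an adjusted p of 0.0568 without shCtrl replicate 2. Of PIAS1's exonic bases 32.7% are shared with genes on the other strand. IRF2, a repressor of ISRE promoters, rose by 0.47 (SE 0.123, edgeR adjusted p = 0.02), and its partners IRF2BP1 (-0.51, SE 0.141, edgeR adjusted p = 0.0237) and IRF2BP2 (-0.19, SE 0.0572, edgeR adjusted p = 0.0302) fell. Each of these 3 lost its call without at least 1 sample. For IRF2 these were shCtrl replicates 1 and 3 and shAC007128.1 replicate 2 (adjusted p = 0.062 to 0.0788), for IRF2BP1 each shCtrl sample (0.0541 to 0.0737), and for IRF2BP2 every sample except shAC007128.1 replicate 3 (0.0526 to 0.104).

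Of the other interferon-stimulated effectors, 9 of 30 tested genes rose (30%) and 12 fell (40%), beside 21% and 19.8% of all genes. The helicase gene DDX60 fell from 20.0 ± 2.19 to 2.49 ± 0.638 CPM (SD, n = 3; -3.01, SE 0.21, edgeR adjusted p = 7.63e-05). LAMP3, a lysosomal membrane protein, fell from 15.1 ± 1.42 to 2.11 ± 0.637 CPM (-2.83, SE 0.245, edgeR adjusted p = 0.000166), and TMEM140 from 19.6 ± 1.06 to 5.60 ± 0.781 CPM (-1.81, SE 0.143, edgeR adjusted p = 0.000118). Of TMEM140's exonic bases 22.7% are shared with CYREN on the other strand. NMI and PML, given above, were among the genes of this group that rose. The guanylate-binding proteins, GTPases induced mainly by interferon gamma, also split. GBP1 fell from 2.41 ± 0.204 to 0.858 ± 0.353 CPM (-1.49, SE 0.326, edgeR adjusted p = 0.00943). GBP3 rose from 13.2 ± 1.40 to 27.7 ± 1.62 CPM (1.07, SE 0.118, edgeR adjusted p = 0.000456) and GBP6 from 1.27 ± 0.0619 to 7.88 ± 1.76 CPM (2.64, SE 0.219, edgeR adjusted p = 0.000143). The summed leukocyte markers were lower in shAC007128.1, mainly through CD68 (63.8 to 17.5 CPM) and ITGAX (3.59 to 0.44 CPM). CD14 and NKG7 had lower means at few counts, while CD3E (0.463 to 0.707 CPM) and PTPRC (0.0313 to 0.106 CPM) had higher means. The summed epithelial markers were higher, but TP63 and KRT17 had no call. The part of either sum in these results was not tested.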

How the data were processed

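KYSE150 cells with shCtrl or shAC007128.1 were sequenced as 3 samples each (TruSeq poly-A, paired-end). The authors discarded reads of rRNA, of adapters or of low quality before mapping to hg38 with TopHat. The submitters' processing notes name CASAVA 1.8, TopHat2 2.0.6, which is not the TopHat version in the study's methods, and the mouse build mm10 beside GRCh38. The study used Cufflinks for FPKM values, which are not used here. The table deposited by the authors holds estimated counts per Ensembl gene, not normalized and written as whole numbers. The program that made this count table, its annotation and its use of strand are not given in the sources used here. Its low values peak at 4, 8 and 12, and dividing all counts by 4 was tried.

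Titles and descriptions gave each sample's group, and 0 columns stayed unmapped. Symbols, positions and lengths come from GENCODE v44 (60357 of 67140 identifiers found). edgeR 4.0.16 in R 4.3.3 (filterByExpr, which kept 19254 genes, TMM, glmQLFit and glmQLFTest, Benjamini-Hochberg over all genes) tested shAC007128.1 against shCtrl. The standard error is the log2 fold change over the root of the F statistic. Steps were tested on simulated data. Alternatives were DESeq2 1.42.0, limma-voom (limma 3.58.1), other scalings and filters, a replicate block and each sample left out. Same-numbered samples did not deviate together (r = -0.0299 to 0.0306), so they were not paired.

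The members and lists were chosen with earlier results of these data known. Every member could be named. Values in every sample are given for the ligand, receptors and transcription factors, for the 10 lowest and 10 highest log2 fold changes among other called members, and for member neighbours within 200 kb. Of the other pathway genes, up to 3 per direction and role with the smallest p are named, and some genes are not reported here. The counts carry no molecular identifiers, so detection limits cover counting error only.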

Additional observations from a re-analysis of the deposited data

How the results depend on the processing

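Of the 30 called members, 22 kept their direction and call under each of the 14 alternatives in which they were tested, 8 lost the call in at least 1 (STAT2, RIGI, IFIH1, USP18, BST2, TRIM22, SAMD9L and DTX3L) and 0 reversed. Of the 14 members without a call, 7 passed in at least 1. Leaving out each sample in turn gave 9 to 12 members higher and 13 to 20 lower, 3 to 4 and 9 to 13 at 2-fold, a median log2 fold change of members of -0.45 to -0.32, and -1.29 to -0.51 for AC007128.1. When each of the 6 samples had to hold 10 counts, the members lower at 2-fold numbered 7 and the median was -0.15, since the low genes that fell were not tested. The median was -0.43 with limma-voom and -0.22 with counts divided by 4. Uncalled values changed sign for IFNAR2 with library sizes alone (-0.018), which moved the median of all genes from -0.02 to -0.10, and for IFNAR2 (-0.128 to 0.181), IRF7 (-0.36 to 0.034) and PARP14 (-0.13 to 0.022) when single samples were left out. With the replicate number as a block, 11 members rose and 16 fell, the median was -0.43, and RIGI (adjusted p = 0.0771), USP18 (0.0622), BST2 (0.0553) and SAMD9L (0.0638) lost their calls while MX1 gained one (0.00959). Low counts in shAC007128.1 limit the folds of IFITM1, HERC5, RSAD2, BST2 and SAMD9L.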
